A study of Mus musculus with 16 samples.

Results

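The genes of central carbon metabolism that take glucose into the cell, break it down, feed it into the mitochondrion and build fatty acids from it were examined for 5-hydroxymethylcytosine (5hmC) in mouse CD4 T cells. A list of 37 genes was set, and every region of the deposited count table that the table assigns to one of them was summed per gene. Of the 37 genes, 34 had at least 1 region, out of 15543 genes in the table, and these 34 genes held 391 of its 177720 regions. They fall by role into 14 genes of glycolysis, 7 of pyruvate dehydrogenase and the TCA cycle, 3 of the pentose phosphate pathway, 4 of fatty acid metabolism, 3 glucose and lactate transporters, 2 regulators and 1 gene of glucose release. The rule goes by gene name and uses no measured value. The 3 without a region assigned to them were Tpi1, Gapdh and G6pdx.

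All cells came from the spleen and lymph nodes of C57BL/6 mice aged 5 to 6 weeks that carry the Foxp3-eGFP reporter, in which eGFP marks cells expressing the Treg transcription factor Foxp3. The sort gate was CD4+eGFP-CD25-CD62LhiCD44lo for naive cells. For Treg it was CD4+eGFP+. Induced Treg (iTreg) were grown from naive CD4 cells with TGFβ alone (TGFβ iTreg), or with vitamin C (VitC) and retinoic acid (RA) added to the TGFβ (RA+VitC iTreg). Each group had 2 replicates, and each replicate a 5hmC pull-down (CMS-IP, in which bisulfite converts 5hmC to cytosine methylenesulfonate and an antiserum precipitates it) and an input library kept before precipitation. The labels do not say whether replicates were separate mice or cultures, so p-values measure only the spread between these libraries. They also do not say that iTreg were sorted for eGFP after culture. No culture lacked TGFβ, and RA was never given without VitC, so the effects of culture and of TGFβ cannot be told apart, nor those of RA and of VitC.

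5hmC is made from 5-methylcytosine by the TET enzymes, which need 2-oxoglutarate, a TCA cycle intermediate, and whose activity vitamin C raises. The mark lies in gene bodies and enhancers and often accompanies transcribed genes, but it is not a measure of RNA. In T cells, activation switches cells from oxidation of fuels to rapid glycolysis, for which glucose transporter and hexokinase genes are induced, and Treg are known for relying more on mitochondrial oxidation than other activated CD4 cells. Hif1a encodes the oxygen-regulated factor that drives many glycolytic genes.

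Values are CPM, reads scaled to a fixed total for that library. For a gene the total is over all regions assigned to a gene symbol, and for a single region it is over all regions. Gene and region CPM are therefore not on exactly the same scale. Pull-downs were also TMM scaled, while inputs were scaled by library size alone. Spike-in reads were not used, so a change is a change in share of the pull-down, not in the amount of 5hmC per cell. Pull-downs held 1648804 to 9731897 reads in regions, with the TGFβ iTreg pull-downs the shallowest at 1648804 and 2114056, and inputs held 1028822 to 1563165. Pull-down reads divided by input reads came to 5.5 and 6.39 in naive cells, 4.9 and 6.33 in Treg, 1.49 and 1.72 in TGFβ iTreg and 3.88 and 3.14 in RA+VitC iTreg. Of 10 CD4 T cell marker genes, 9 had regions, none was at 0 in a pull-down, and their summed level was 3930 to 3950 CPM in naive cells, 3380 to 3450 in Treg, 2730 to 3150 in TGFβ iTreg and 3460 to 3530 in RA+VitC iTreg. Summed over 10 B cell markers the level was 196 to 201, 222 to 224, 188 to 227 and 178 to 196 CPM in the same order, and over 9 myeloid and dendritic markers 419 to 422, 310 to 312, 338 to 340 and 239 to 257 CPM. Over 9 CD8 and NK markers it was 899 to 900, 803 to 808, 841 to 907 and 807 to 812 CPM. The B cell list and the myeloid list each had 1 marker at 0 in at least 1 pull-down. Pull-down reads over the genes of another cell type are not a count of such cells, and a change in cell makeup and a change in 5hmC per cell cannot be told apart in these bulk libraries. The part of these lists in the results below was not tested.

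The 34 genes together made up 0.206% and 0.205% of all reads pulled down from naive cells, 0.215% and 0.222% in Treg, 0.236% and 0.233% in TGFβ iTreg, and 0.249% and 0.253% in RA+VitC iTreg. In the inputs their share was 0.208% to 0.221%, and lowest in RA+VitC iTreg. The share therefore stood higher in both libraries of each iTreg group than in any library of the sorted cells. Per length, the genes' median level was 3.72 CPM per kb of region in naive cells, 3.66 in Treg, 3.79 in TGFβ iTreg and 4.41 in the RA+VitC iTreg, while the median over all tested genes ran from 3.49 to 3.55. The lowest level per kb in naive cells was that of Hk2, at 2.01, and the highest in RA+VitC iTreg was that of Pfkp, at 9.08.

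Counts of the 8 pull-downs were fitted together with edgeR's quasi-likelihood test, with p-values adjusted over all 14951 tested genes (Benjamini-Hochberg) and a threshold of 0.05. Calls were common across the genome, so the count of members is set beside the share of all genes called. All comparisons with naive cells share the same 2 naive libraries. In Treg against naive cells, 8 of the 34 genes rose (23.5%, against 20.0% of all genes) and 10 fell (29.4%, against 19.2%). In TGFβ iTreg against naive cells, 11 rose (32.4%, against 23.4%) and 7 fell (20.6%, against 18.2%). In RA+VitC iTreg against naive cells, 14 rose (41.2%, against 29.2%) and 7 fell (20.6%, against 26.6%). In RA+VitC iTreg against TGFβ iTreg, 9 rose (26.5%, against 12.4%) and 1 fell (2.94%, against 10.7%). TGFβ iTreg against Treg gave 11 that rose (32.4%, against 20.7%) and 6 that fell (17.6%, against 15.0%), and RA+VitC iTreg against Treg 14 (41.2%, against 26.6%) and 4 (11.8%, against 23.1%). The shares that rose in Treg against naive cells, and that fell in TGFβ iTreg against naive cells or Treg, lie near the background and are no result about these genes.

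The median log2 fold change of the 34 genes was 0.04 in Treg, 0.05 in TGFβ iTreg and 0.16 in the RA+VitC iTreg against naive cells, and 0.13 in RA+VitC iTreg against TGFβ iTreg. Scaling by library size in place of TMM moves the median of all genes to -0.17, -0.11 and -0.18 in RA+VitC iTreg against naive cells, TGFβ iTreg and Treg. With it, the 34 genes split into 10 that rose and 8 that fell in RA+VitC iTreg against naive cells, 6 and 3 against TGFβ iTreg, and 10 and 6 against Treg, while TGFβ iTreg against naive cells gave 10 and 11. The shares of all genes called under library-size scaling are not given here. The TMM shares are therefore not the background of these counts, nor of the counts with that scaling below. Without TGFβ iTreg replicate 1, 5 genes were called between the iTreg groups in place of 10, and without TGFβ iTreg replicate 2, 11 in place of 17 between TGFβ iTreg and Treg. When the change of the input was subtracted in the same fit, an alternative added after the data were seen, fewer genes were called, namely 4 in Treg, 11 in TGFβ iTreg and 9 in the RA+VitC iTreg against naive cells, 3 between the iTreg groups, and 10 and 9 for the same iTreg groups against Treg. In that fit 14.5%, 22.9%, 31.0%, 8.84%, 17.2% and 25.2% of all genes were called in the same order. Over the 6 comparisons this ended 56 calls, of which only some are named below.

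**Figure D1:**
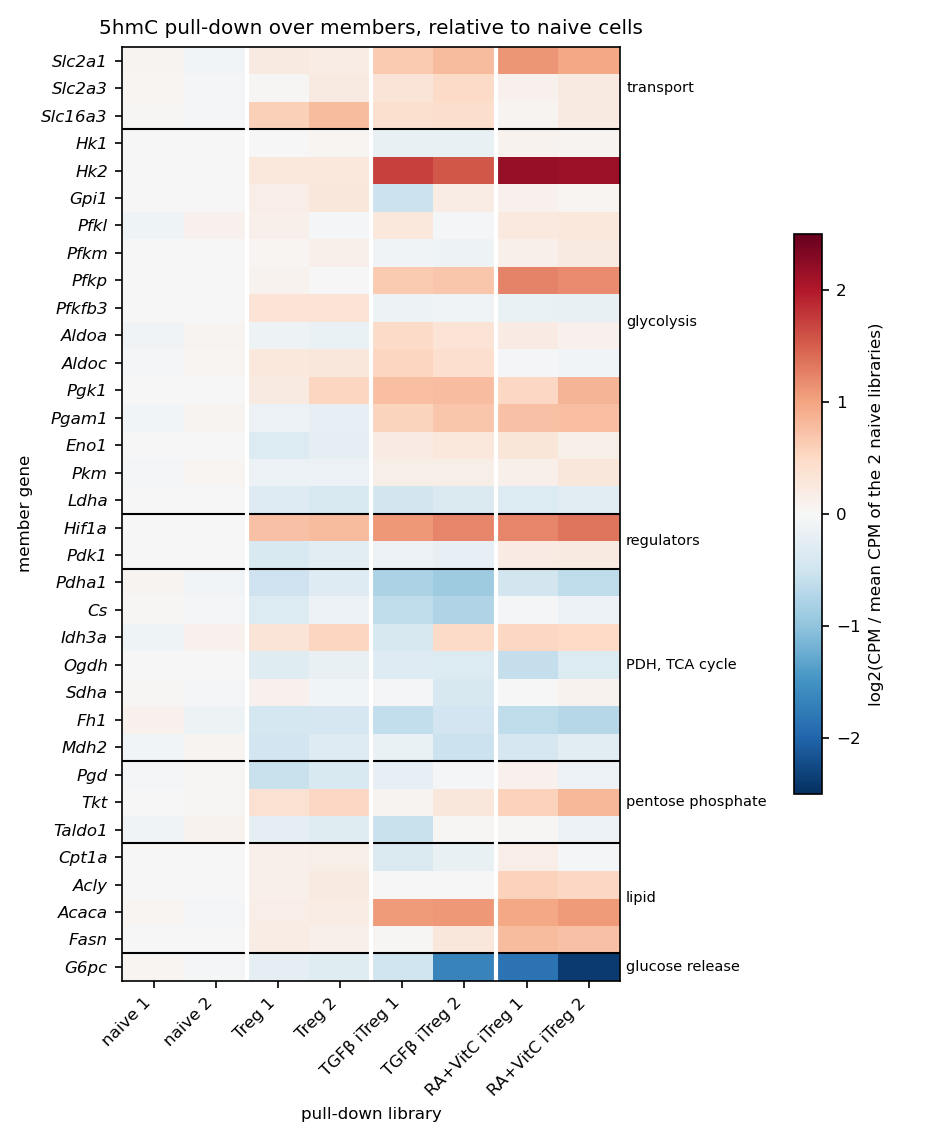
Level of each of the 34 genes in each of the 8 pull-downs, as log2 of its CPM over the mean of the 2 naive libraries, with genes in rows ordered by role and libraries in columns. Hk2, Hif1a, Pfkp, Slc2a1 and Acaca stand high in the 4 iTreg columns, G6pc stands low in the RA+VitC iTreg columns, and most TCA cycle genes lie slightly below the naive level.

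Promoter letters are shown for the 5 genes whose most read or most changed region, as described below, touches their own annotated promoter or 5′ UTR, since the CpG pairs in them are the sites that methylation and 5hmC can occupy. Each line gives the 250 bases before the transcript start in RefSeq's annotation of GRCm38.p6, 5′ to 3′ on the gene's strand, with CpG pairs in capitals. The counts are on mm9, so these letters are not lined up with the counted regions. They lie at chr12:73907617-73907866 for Hif1a (plus strand), chr19:41911621-41911870 for Pgam1 (plus strand), chr11:100528001-100528250 for Acly (minus strand), chr11:120824548-120824797 for Fasn (minus strand) and chr14:30548881-30549130 for Tkt (plus strand).
Hif1a: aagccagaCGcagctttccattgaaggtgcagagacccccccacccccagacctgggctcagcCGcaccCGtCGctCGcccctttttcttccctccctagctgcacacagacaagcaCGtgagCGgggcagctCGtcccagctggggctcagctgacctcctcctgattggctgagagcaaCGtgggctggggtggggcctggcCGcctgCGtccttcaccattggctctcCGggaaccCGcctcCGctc
Pgam1: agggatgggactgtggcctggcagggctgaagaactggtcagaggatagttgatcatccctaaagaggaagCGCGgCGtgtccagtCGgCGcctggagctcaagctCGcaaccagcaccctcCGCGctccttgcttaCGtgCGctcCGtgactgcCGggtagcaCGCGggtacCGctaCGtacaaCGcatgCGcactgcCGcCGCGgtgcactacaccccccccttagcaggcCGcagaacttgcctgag
Acly: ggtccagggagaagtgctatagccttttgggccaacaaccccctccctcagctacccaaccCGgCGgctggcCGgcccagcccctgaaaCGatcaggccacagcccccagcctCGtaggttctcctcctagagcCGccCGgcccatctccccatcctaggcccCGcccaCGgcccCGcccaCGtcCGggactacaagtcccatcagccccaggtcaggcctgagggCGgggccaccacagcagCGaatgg
Fasn: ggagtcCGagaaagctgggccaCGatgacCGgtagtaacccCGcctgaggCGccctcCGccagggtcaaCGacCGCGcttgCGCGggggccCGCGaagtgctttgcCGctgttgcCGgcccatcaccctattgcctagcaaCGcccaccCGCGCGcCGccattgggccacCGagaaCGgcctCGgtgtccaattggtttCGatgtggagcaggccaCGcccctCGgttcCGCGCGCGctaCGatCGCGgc
Tkt: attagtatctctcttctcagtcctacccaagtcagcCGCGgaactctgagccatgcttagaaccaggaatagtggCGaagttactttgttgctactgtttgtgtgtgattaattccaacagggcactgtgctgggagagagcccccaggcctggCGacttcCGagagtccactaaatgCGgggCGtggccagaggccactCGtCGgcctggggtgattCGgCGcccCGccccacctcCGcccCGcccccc
The windows of Hif1a, Acly and Tkt held 14 CpG pairs each, that of Pgam1 held 22 and that of Fasn held 33. RefSeq promoters were found for 35 of the 37 genes, with 54 starts, and the median start of these genes had 14 CpG pairs in 250 bases against 6 over all 32851 starts. The letters ACGTG, the core of the site that HIF binds, were searched on both strands and were present in the windows of Hif1a, Pgam1 and Acly and not in those of Fasn and Tkt. They occurred in 22 of the 54 starts (40.7%) and in 16.6% of all starts. The core itself contains a CpG, so a CpG-rich promoter has more chances to hold it, and a match does not show that a factor binds.

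Glucose enters T cells through the transporters Slc2a1 (GLUT1) and Slc2a3 (GLUT3), and lactate leaves through Slc16a3 (MCT4). Slc2a1 stood at 99.1 and 90.9 CPM in naive cells, 111 and 108 in Treg, 150 and 165 in TGFβ iTreg and 205 and 186 in RA+VitC iTreg. No 2 groups overlapped, and the order ran from naive cells through Treg and TGFβ iTreg to RA+VitC iTreg. Against naive cells it rose by 0.74 on the log2 scale (SE 0.08, 1.67-fold, edgeR adjusted p = 2.7e-13) in TGFβ iTreg and by 1.05 (SE 0.07, 2.07-fold, edgeR adjusted p = 1.7e-29) in RA+VitC iTreg. Its smaller steps were less firm. The change of 0.21 in Treg (edgeR adjusted p = 0.0057) was 0.15 without naive replicate 2 (adjusted p = 0.20) and 0.19 without Treg replicate 1 (adjusted p = 0.052), and 0.17 (adjusted p = 0.53) with the input's change subtracted. The change of 0.31 between the iTreg groups (edgeR adjusted p = 0.0028) was 0.25 without TGFβ iTreg replicate 1 (adjusted p = 0.069), 0.24 without RA+VitC iTreg replicate 1 (adjusted p = 0.071) and 0.29 (adjusted p = 0.36) after the input's change. The region of Slc2a1 with the most reads, in an intron at chr4:118782356-118784917 (mm9), stood at 21.3 and 17.5 CPM in naive cells and 53.7 and 46.1 in RA+VitC iTreg.

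Slc16a3 stood at 45.7 and 43.5 CPM in naive cells, 67.8 and 77.6 in Treg, 59.1 and 60.4 in TGFβ iTreg and 46.6 and 52.1 in RA+VitC iTreg. This lactate exporter was thus highest in sorted Treg, where it rose 1.64-fold over naive cells (log2 0.71, SE 0.08, edgeR adjusted p = 1.5e-13), and both RA+VitC iTreg libraries lay above both naive ones by a log2 change of 0.15 that did not pass (adjusted p = 0.23). In TGFβ iTreg the log2 change against naive cells was 0.42 (edgeR adjusted p = 0.0032), and 0.41 (adjusted p = 0.063) without TGFβ iTreg replicate 2. Against Treg it fell by 0.56 in RA+VitC iTreg (edgeR adjusted p = 3.9e-07), where the input's own change was -0.42 (edgeR unadjusted p = 0.045) and the difference of the changes was -0.14 (adjusted p = 0.74). Slc2a3 stood at 91.6 and 85.8 CPM in naive cells, 90.7 and 103 in Treg, 111 and 123 in TGFβ iTreg and 96.1 and 103 in RA+VitC iTreg. It rose in TGFβ iTreg against naive cells by 0.41 (SE 0.09, edgeR adjusted p = 0.00011). That gene total hid a larger local change, since a region 19.9 kb upstream of its transcript, at chr6:122712710-122715093 (mm9), stood at 10.1 and 8.62 CPM in naive cells, 10.2 and 14.7 in Treg, 20.7 and 32.3 in TGFβ iTreg and 19.8 and 23.9 in RA+VitC iTreg. This region rose by log2 1.53 in TGFβ iTreg and 1.23 in the RA+VitC iTreg against naive cells (edgeR adjusted p = 1.4e-12 and 5.6e-11).

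Among the 14 glycolysis genes, Hk2 had the largest change in both iTreg groups against naive cells. Hk2, the inducible hexokinase that traps glucose in the cell, stood at 68.7 and 67.4 CPM in naive cells, 82.1 and 81.1 in Treg, 221 and 199 in TGFβ iTreg and 307 and 304 in RA+VitC iTreg. The replicates lay close together and no groups overlapped. Hk2 rose 3.08-fold in TGFβ iTreg (log2 1.62, SE 0.08, edgeR adjusted p = 2e-38) and 4.49-fold in RA+VitC iTreg (log2 2.17, SE 0.06, edgeR adjusted p = 3.6e-62) against naive cells, and 1.46-fold between the iTreg groups (log2 0.55, SE 0.07, edgeR adjusted p = 4e-10). These calls held with the input's change subtracted, at 1.57, 2.07 and 0.50. The log2 change of 0.26 in Treg (edgeR adjusted p = 0.0012) was 0.06 (adjusted p = 0.85) in that fit. Hk2 had the lowest level per kb of the 34 genes in naive cells and in Treg.

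Much of the Hk2 change came from 1 broad region of 15083 bp over exons and introns, at chr6:82693181-82708263 (mm9). It stood at 17.9 and 18.0 CPM in naive cells, 30.4 and 29.0 in Treg, 109 and 99.4 in TGFβ iTreg and 173 and 169 in RA+VitC iTreg. The region held 28.5% of the Hk2 reads in naive cells, 39.6% in Treg, 54.4% in TGFβ iTreg and 57.9% in the RA+VitC iTreg. Its log2 fold change was 0.72, 2.53 and 3.25 against naive cells in the same order of groups, and 0.72 between the iTreg groups (edgeR adjusted p = 9e-10). Of the 15 tested regions of Hk2, this one included, 10 rose in RA+VitC iTreg against naive cells and 1 fell, where 21.9% of all tested regions rose and 15.8% fell.

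Pfkp, the platelet-type phosphofructokinase of the committed step, stood at 122 and 124 CPM in naive cells, 130 and 123 in Treg, 194 and 200 in TGFβ iTreg and 291 and 279 in RA+VitC iTreg. Naive cells and Treg overlapped, while both iTreg groups lay apart. Pfkp rose 1.6-fold in TGFβ iTreg (log2 0.68, SE 0.08, edgeR adjusted p = 7.9e-14) and 2.31-fold in RA+VitC iTreg (log2 1.21, SE 0.06, edgeR adjusted p = 1.4e-39), and 1.44-fold between the iTreg groups (log2 0.53, SE 0.07, edgeR adjusted p = 2.4e-09). After the input's change these were 0.47, 1.00 and 0.53, all past the threshold. Its broadest region, 15247 bp at chr13:6623954-6639200 (mm9), stood at 70.6 and 69.9 CPM in naive cells, 98.1 and 110 in TGFβ iTreg and 174 and 171 in RA+VitC iTreg. A neighbouring region at chr13:6639988-6643641 stood at 9.77 and 9.02, 28.1 and 28, and 22.6 and 23.9 CPM in the same groups. Between the iTreg groups the first rose by log2 0.72 (edgeR adjusted p = 1.1e-09), while the second had a log2 change of -0.27 that did not pass (SE 0.19, edgeR adjusted p = 0.49). The other phosphofructokinase genes, Pfkl and Pfkm, were called in none of the 6 comparisons.

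**Figure D2:**
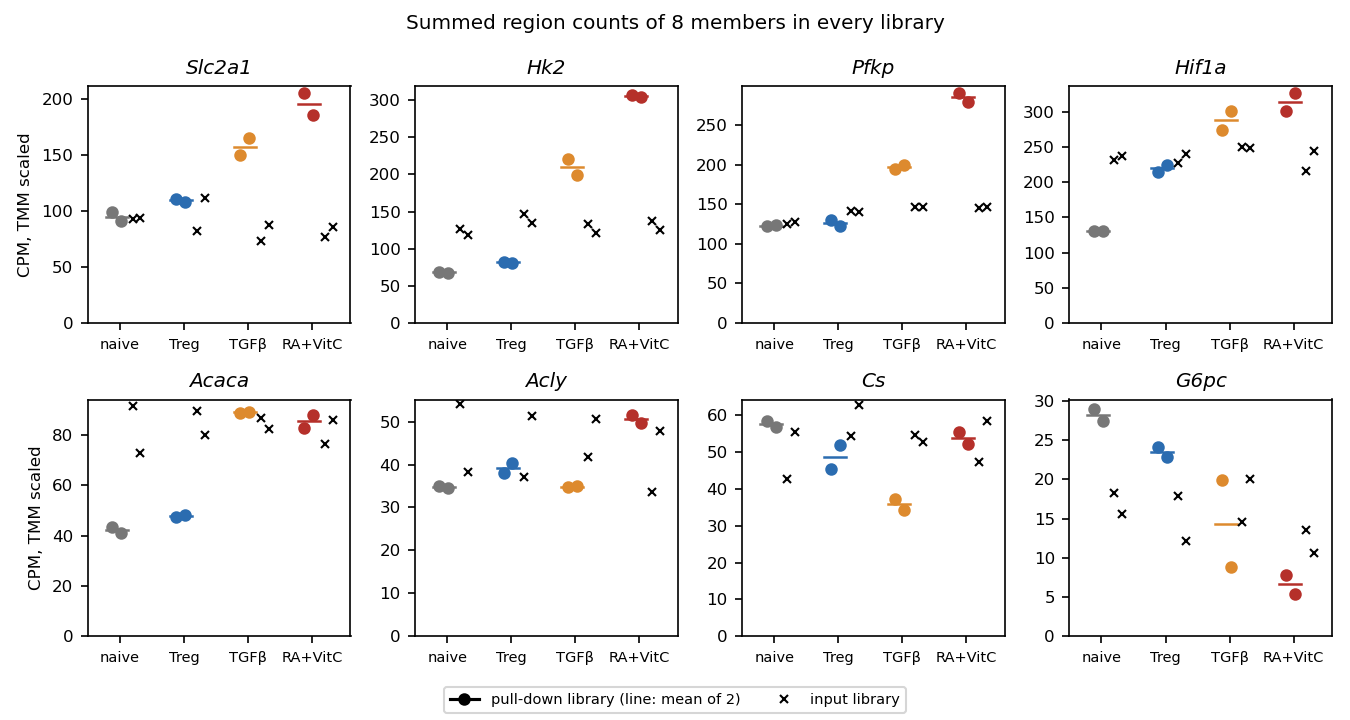
CPM of Slc2a1, Hk2, Pfkp, Hif1a, Acaca, Acly, Cs and G6pc in every library, with the pull-downs as dots, their mean of 2 as a line and the inputs as crosses. Hk2 runs from 67.4 CPM in naive cells to 307 in RA+VitC iTreg, Cs is lowest in TGFβ iTreg at 34.3 and 37.2, and the 2 TGFβ iTreg pull-downs of G6pc lie apart at 19.9 and 8.85.

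Over all 14 glycolysis genes, 3 rose (21.4%) and 2 fell (14.3%) in Treg against naive cells, where 20.0% and 19.2% of all genes did. In each iTreg group against naive cells 6 rose (42.9%) and 2 fell (14.3%). Of all genes 23.4% and 18.2% did in TGFβ iTreg, and 29.2% and 26.6% in RA+VitC iTreg. Between the iTreg groups 3 rose (21.4%, against 12.4%) and none fell. The medians were 0.04, 0.19, 0.19 and 0.11 in that order. Against Treg, 6 rose and 2 fell in TGFβ iTreg (20.7% and 15.0% of all genes did). In RA+VitC iTreg 6 rose and 1 fell (26.6% and 23.1%), with a median of 0.25 in each. The shares in Treg against naive cells, and those that fell in TGFβ iTreg, lie near the background and are no result about these genes. In RA+VitC iTreg against naive cells with library-size scaling, 4 rose and 2 fell and the median was 0.03. Beside Hk2 and Pfkp the 6 in TGFβ iTreg were Pgam1, Pgk1, Aldoa and Eno1, and in RA+VitC iTreg Pgam1, Pgk1, Eno1 and Pkm. Pgam1, phosphoglycerate mutase, stood at 18.0 and 19.7 CPM in naive cells, 17.1 and 16.3 in Treg, 27.6 and 30.2 in TGFβ iTreg and 31.4 and 31.8 in RA+VitC iTreg. Both iTreg groups lay above both sorted groups. Its log2 change was 0.62 in TGFβ iTreg (SE 0.18, edgeR adjusted p = 0.0023), and 0.55 (adjusted p = 0.091) without TGFβ iTreg replicate 2, and 0.74 in RA+VitC iTreg (SE 0.14, edgeR adjusted p = 1.5e-06). The change of the Pgam1 input was 0.60 in RA+VitC iTreg (SE 0.26, edgeR unadjusted p = 0.023), and the difference of the changes was 0.24 and 0.14 (adjusted p = 0.67 and 0.77). Against Treg, Pgam1 rose by log2 0.80 and 0.92 in TGFβ iTreg and RA+VitC iTreg (edgeR adjusted p = 0.00014 and 1.5e-08), and the values were 0.68 and 0.59 after the input's change (adjusted p = 0.13 and 0.14). All 4 regions of Pgam1 also touch another gene. A region annotated as the Pgam1 promoter, chr19:41983761-41985916 (mm9), stood at 3.34 and 5.25 CPM in naive cells, 3.94 and 2.85 in Treg, 10.9 and 8.21 in TGFβ iTreg and 9.32 and 10.4 in RA+VitC iTreg, and rose by log2 1.10 and 1.16 in the iTreg groups against naive cells (edgeR adjusted p = 0.004 and 3.8e-05).

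Pgk1, phosphoglycerate kinase, stood at 14.8 and 15.0 CPM in naive cells, 17.5 and 21.5 in Treg, 25 and 25.5 in TGFβ iTreg and 21.3 and 27.0 in RA+VitC iTreg. It rose by log2 0.76 and 0.69 in TGFβ iTreg and RA+VitC iTreg against naive cells (SE 0.19 and 0.16, edgeR adjusted p = 0.00059 and 7.6e-05). After the input's change these values were 0.37 and 0.61, past the threshold in neither (adjusted p = 0.54 and 0.21), and the Treg value of 0.39 was lost without either naive replicate (0.38 without 1, 0.41 without 2) or Treg replicate 2 (0.23). Of the 14 genes, only Ldha, the lactate dehydrogenase subunit that favours lactate formation, fell in all 3 comparisons with naive cells. It stood at 102 and 101 CPM in naive cells, 81.1 and 77.2 in Treg, 73.2 and 78.6 in TGFβ iTreg and 79.8 and 82.7 in RA+VitC iTreg, and fell in each group against naive cells, by 0.36, 0.41 and 0.32 on the log2 scale (edgeR adjusted p = 2.8e-06, 0.00033 and 0.00032). After the input's change the Ldha value held in TGFβ iTreg at -0.61 (adjusted p = 0.0099), but not in Treg (-0.36, adjusted p = 0.15) or RA+VitC iTreg (-0.41, adjusted p = 0.083).

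Pfkfb3, the enzyme that makes the activator of phosphofructokinase, rose in Treg against naive cells, from 241 and 236 CPM to 304 and 303 (log2 0.35, SE 0.05, edgeR adjusted p = 9.5e-10). It stood at 219 and 225 in TGFβ iTreg and 214 and 210 in RA+VitC iTreg, and was lower than in Treg by log2 -0.45 in TGFβ iTreg and -0.52 in the RA+VitC iTreg (edgeR adjusted p = 2.6e-14 for the latter). Sorted Treg thus held the highest level of this gene. The call of -0.17 in RA+VitC iTreg against naive cells was lost without naive replicate 1 (-0.16), without RA+VitC iTreg replicate 2 (-0.15) and over regions on the transcript alone (-0.01). Eno1, enolase, stood at 90.1 and 92.3 CPM in naive cells, 71.6 and 76.6 in Treg, 105 and 109 in TGFβ iTreg and 112 and 101 in RA+VitC iTreg, so it was lowest in Treg. It fell in Treg against naive cells by 0.30 (SE 0.07, edgeR adjusted p = 0.00014), a value of -0.17 (adjusted p = 0.55) after the input's change. Against Treg it rose by log2 0.53 in TGFβ iTreg and 0.52 in the RA+VitC iTreg (edgeR adjusted p = 2.3e-06 and 1.1e-08), and both held after the input's change, at 0.57 and 0.60 (adjusted p = 0.01 and 0.0031). Against naive cells Eno1 was 0.23 in TGFβ iTreg and 0.22 in the RA+VitC iTreg. The first was past the threshold in none of the fits without a naive or TGFβ iTreg library (0.21 and 0.25 without naive replicate 1 and 2, 0.25 and 0.21 without TGFβ iTreg replicate 1 and 2). The second was lost without naive replicate 1 (0.20) or RA+VitC iTreg replicate 1 (0.15). Aldoa, an aldolase, rose in TGFβ iTreg by log2 0.56 against Treg (edgeR adjusted p = 0.00029), which was 0.25 (adjusted p = 0.60) after the input's change. Its value of 0.40 in TGFβ iTreg against naive cells was 0.34 without naive replicate 1 and 0.34 without TGFβ iTreg replicate 1, neither past the threshold. In RA+VitC iTreg against Treg it was 0.31, lost without Treg replicate 2 (0.29) or RA+VitC iTreg replicate 1 (0.27). The Pkm call of 0.20 in RA+VitC iTreg was lost when any of 5 libraries was left out, with values of 0.16 and 0.24 without naive replicate 1 and 2, 0.20 without either Treg replicate and 0.12 without RA+VitC iTreg replicate 2. The Hk1 values of -0.19 in TGFβ iTreg against naive cells and 0.27 between the iTreg groups were also lost, the first without any naive or TGFβ iTreg library (-0.20 to -0.18), the second without TGFβ iTreg replicate 1 or 2 (0.27 each) or RA+VitC iTreg replicate 1 (0.26). Against Treg, the Hk1 value of -0.22 in TGFβ iTreg was lost without Treg replicate 2 (-0.20) or TGFβ iTreg replicate 1 (-0.23) or 2 (-0.22). Gpi1, Pfkl, Pfkm and Aldoc were called in no comparison.

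**Figure D3:**
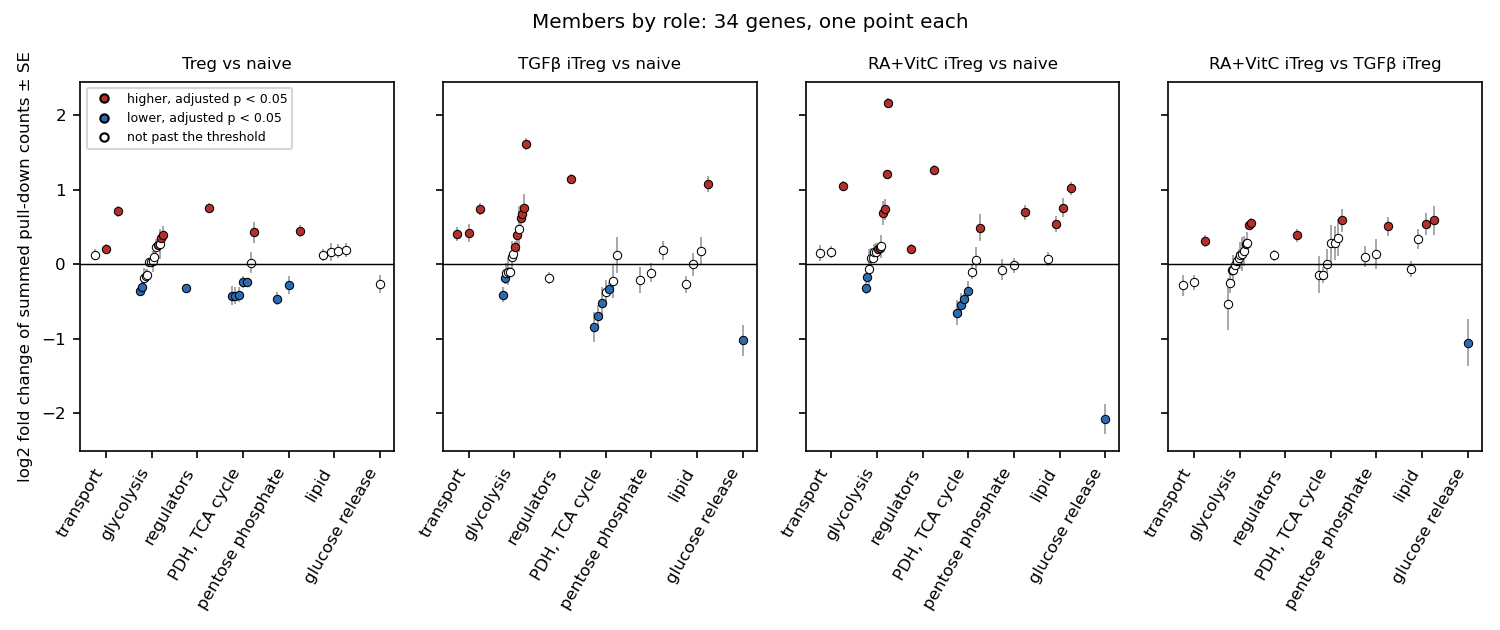
Log2 fold change of each gene, with its SE as a bar, in roles along the axis, for Treg, TGFβ iTreg and RA+VitC iTreg against naive cells and for RA+VitC iTreg against TGFβ iTreg. Hk2 is the highest point in both iTreg comparisons with naive cells (1.62 and 2.17), G6pc the lowest (-1.02 and -2.08), and the TCA cycle group has its median below 0 in the 3 comparisons with naive cells.

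The regulator Hif1a rose in each group against naive cells. It stood at 130 and 130 CPM in naive cells, 215 and 225 in Treg, 275 and 302 in TGFβ iTreg and 301 and 327 in RA+VitC iTreg, so the iTreg groups overlapped while the others lay apart. The log2 fold change against naive cells was 0.76 in Treg (SE 0.06, 1.69-fold, edgeR adjusted p = 7.1e-25), 1.15 in TGFβ iTreg (SE 0.07, 2.22-fold, edgeR adjusted p = 2.8e-31) and 1.27 in RA+VitC iTreg (SE 0.06, 2.41-fold, edgeR adjusted p = 6.5e-42). Between the iTreg groups it was 0.12 (95% interval -0.02 to 0.25) and did not pass (adjusted p = 0.23). With the input's change subtracted the values were 0.77, 1.07 and 1.30, all past the threshold. Its rise in Treg was the largest of the 34 genes in that comparison, ahead of Slc16a3 at 0.71.

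The change at Hif1a was spread over many regions. Of 28 tested, 14 rose in Treg, 9 in TGFβ iTreg and 16 in the RA+VitC iTreg against naive cells, and none fell. Of all tested regions, 23.1%, 21.3% and 37.7% were called in either direction in the same order. In RA+VitC iTreg 21.9% of all regions rose and 15.8% fell. For Treg and TGFβ iTreg the shares of all regions by direction are not given here. The difference of the Hif1a counts from the background was not tested. The region that spans its annotated promoter, 5′ UTR, first exon and intron, 12066 bp at chr12:74994399-75006464 (mm9), stood at 14.5 and 16.4 CPM in naive cells, 39.5 and 45.7 in Treg, 58.0 and 72.4 in TGFβ iTreg and 72.6 and 81.0 in RA+VitC iTreg. Its log2 fold change was 1.46, 2.08 and 2.30 against naive cells. A region 57.4 kb upstream, at chr12:74944109-74944937, stood at 0.618 and 0.793 CPM in naive cells, 3.94 and 3.3 in Treg, 8.03 and 11.1 in TGFβ iTreg and 9.32 and 8.36 in RA+VitC iTreg, and had log2 fold changes of 2.3, 3.72 and 3.59. Both regions lay higher in all 6 other libraries than in the naive ones, and the upstream one is assigned to Hif1a by nearest transcript alone.

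Pdk1, the kinase that switches off pyruvate dehydrogenase and keeps pyruvate out of the mitochondrion, stood at 155 and 152 CPM in naive cells, 118 and 129 in Treg, 139 and 133 in TGFβ iTreg and 177 and 179 in RA+VitC iTreg. It was highest in RA+VitC iTreg and lowest in Treg. It fell in Treg against naive cells by 0.32 on the log2 scale (SE 0.06, edgeR adjusted p = 2.2e-06), but the change of its input was the same -0.32 (SE 0.11, edgeR unadjusted p = 0.004) and the difference of the changes was 0.00 (adjusted p = 1.0). It rose between the iTreg groups by 0.39 (edgeR adjusted p = 0.00019) and by 0.44 (adjusted p = 0.036) after the input's change. Its rise of 0.21 in RA+VitC iTreg over naive cells (edgeR adjusted p = 0.0026) was 0.06 (adjusted p = 0.42) with library-size scaling and 0.25 (adjusted p = 0.14) after the input's change. Against Treg it rose in RA+VitC iTreg by 0.53 (edgeR adjusted p = 7.5e-12), which was 0.25 (adjusted p = 0.19) after the input's change. Over the region with the most reads, chr2:71712289-71717742 (mm9), it stood at 29.4 and 33.1 CPM in naive cells, 21.6 and 26.5 in Treg, 28.1 and 26.6 in TGFβ iTreg and 46.6 and 49.0 in RA+VitC iTreg.

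**Figure D4:**
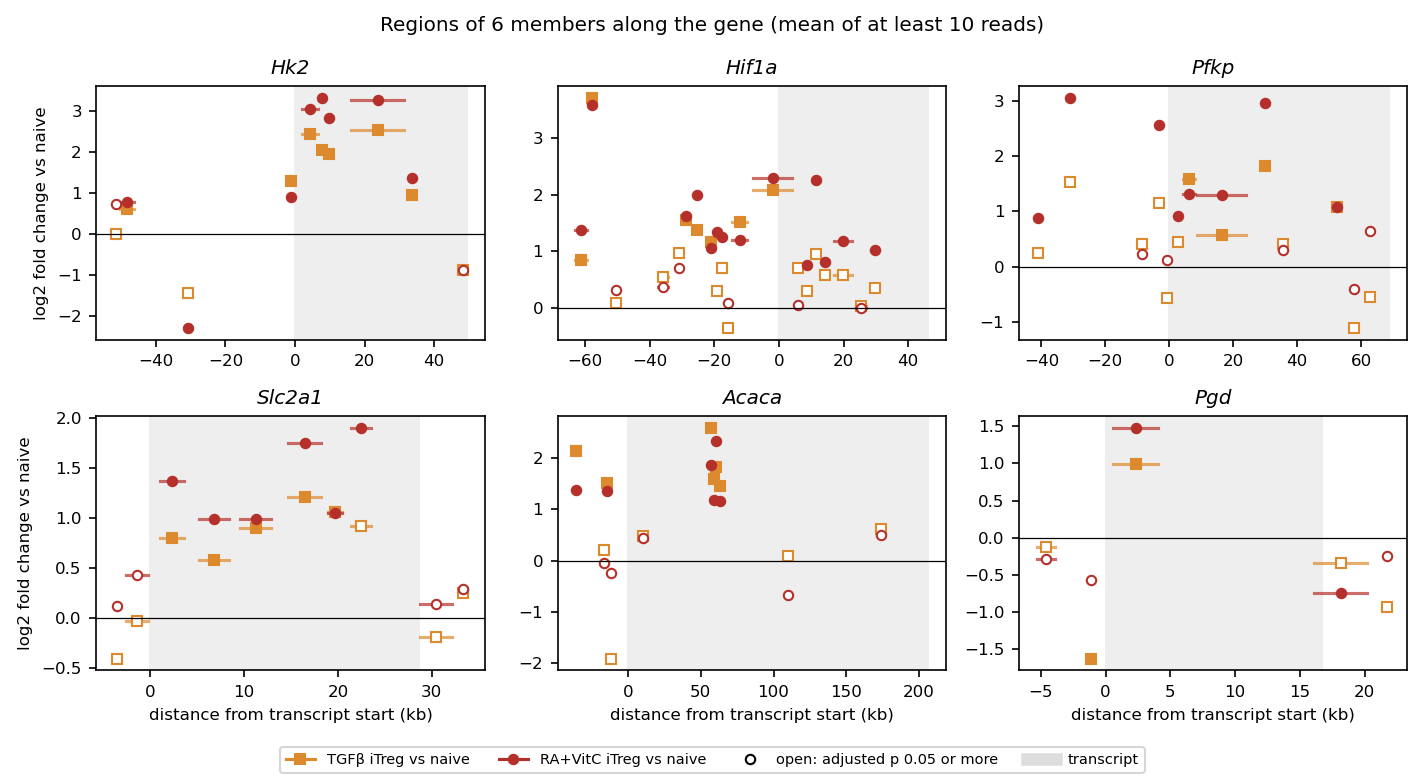
Log2 fold change of single regions of Hk2, Hif1a, Pfkp, Slc2a1, Acaca and Pgd against distance in kb from the transcript start, for TGFβ iTreg (squares) and RA+VitC iTreg (circles) over naive cells, with regions of at least 10 reads on average. Filled marks passed the threshold and grey marks the transcript, and the highest Hif1a points lie upstream of its start while Pgd has regions above and below 0.

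The 7 genes of pyruvate dehydrogenase and the TCA cycle mostly lay lower than in naive cells, in Treg as in both iTreg groups. In Treg against naive cells 5 fell and 1 rose (median log2 fold change -0.24), where 19.2% of all genes fell and 20.0% rose. In TGFβ iTreg 4 fell and none rose (median -0.37), against 18.2% and 23.4% of all genes. In RA+VitC iTreg 4 fell and 1 rose (median -0.36), against 26.6% and 29.2%. As shares of the 7, those that fell were 71.4%, 57.1% and 57.1%. Between the iTreg groups, none fell (10.7% of all genes did), and 1, Cs, rose (14.3%, against 12.4%, median 0.28). With library-size scaling the medians against naive cells were -0.23, -0.42 and -0.51. After the input's change, 0, 2 and 0 of the 7 were called in the 3 comparisons with naive cells (medians -0.21, -0.37 and -0.16), the 2 being Cs and Pdha1 in TGFβ iTreg. The inputs of these 7 genes were not themselves called in any comparison.

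Pdha1, the catalytic subunit that turns pyruvate into acetyl-CoA, stood at 29.2 and 26.5 CPM in naive cells, 19.4 and 22.1 in Treg, 16 and 15.1 in TGFβ iTreg and 20.1 and 18.0 in RA+VitC iTreg. All other libraries lay below both naive ones. It fell by 0.84 on the log2 scale in TGFβ iTreg (SE 0.2, edgeR adjusted p = 0.00021) and by 0.54 in RA+VitC iTreg (SE 0.15, edgeR adjusted p = 0.00093). The value of -0.42 in Treg (edgeR adjusted p = 0.0018) was -0.33 without Treg replicate 1 (adjusted p = 0.054). After the input's change it was -1.13 (adjusted p = 0.022) in TGFβ iTreg, -0.16 (adjusted p = 0.81) in RA+VitC iTreg and -0.58 (adjusted p = 0.28) in Treg. A single region over exons and introns, chrX:156569952-156573734 (mm9), held 70.1% of its reads in naive cells.

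Cs, citrate synthase, which starts the cycle, stood at 58.3 and 56.6 CPM in naive cells, 45.2 and 51.9 in Treg, 37.2 and 34.3 in TGFβ iTreg and 55.3 and 52.1 in RA+VitC iTreg. It was lowest in TGFβ iTreg and lay near the naive level in RA+VitC iTreg. It fell in TGFβ iTreg by 0.69 on the log2 scale (SE 0.14, edgeR adjusted p = 1.2e-05), and by 0.81 (adjusted p = 0.0046) after the input's change. The RA+VitC iTreg value against naive cells was -0.10 and did not pass (adjusted p = 0.43). It rose between the iTreg groups 1.51-fold (log2 0.59, SE 0.15, edgeR adjusted p = 0.0016), which was 0.53 (adjusted p = 0.058) without TGFβ iTreg replicate 2 and 0.60 (adjusted p = 0.12) after the input's change. The value of -0.24 in Treg was lost without naive replicate 1 (-0.22), naive replicate 2 (-0.26) or Treg replicate 1 (-0.14).

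Fh1, fumarase, stood at 23.3 and 19.8 CPM in naive cells, 15.9 and 16.2 in Treg, 14.1 and 15.6 in TGFβ iTreg and 14.0 and 13.2 in RA+VitC iTreg, with every other library below the naive ones. It fell by 0.65 in RA+VitC iTreg (edgeR adjusted p = 0.0005), where the change of its input was -0.61 (SE 0.3, edgeR unadjusted p = 0.041) and the difference of the changes was -0.04 (adjusted p = 0.95). In Treg it was -0.42, and -0.31 (adjusted p = 0.14) without naive replicate 1, and in TGFβ iTreg -0.52, lost without naive replicate 1 (-0.41) or TGFβ iTreg replicate 1 (-0.46) or 2 (-0.60). Ogdh, a subunit of the complex that consumes 2-oxoglutarate, stood at 120 and 118 CPM in naive cells and 78.6 to 104 in the other libraries. It fell in each group, by 0.24, 0.33 and 0.46 (edgeR adjusted p = 0.00097, 0.0024 and 1.2e-07), and after the input's change the values were -0.19, -0.28 and -0.33, past the threshold in none (adjusted p = 0.38, 0.19 and 0.068). Mdh2, malate dehydrogenase, was -0.41 in Treg, where it was -0.33 (adjusted p = 0.05) without naive replicate 2, and -0.36 in RA+VitC iTreg, where it was lost without naive replicate 2 or RA+VitC iTreg replicate 1 (-0.29 each). The gene that rose was Idh3a, a subunit of isocitrate dehydrogenase, at 11.8 and 13.6 CPM in naive cells, 15.9 and 18.5 in Treg, 9.63 and 17.7 in TGFβ iTreg and 18.1 and 18.0 in RA+VitC iTreg. Its values of 0.43 in Treg and 0.49 in RA+VitC iTreg were past the threshold, but the first was lost without naive replicate 1 (0.34) or Treg replicate 2 (0.31) and the second without naive replicate 1 (0.40) or RA+VitC iTreg replicate 1 (0.49) or 2 (0.50). Sdha, which belongs to both the cycle and the respiratory chain, was called in no comparison.

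In the pentose phosphate pathway, which makes NADPH and ribose, Tkt and Pgd moved in opposite directions in Treg. Tkt, transketolase of the non-oxidative branch, stood at 44.5 and 45.8 CPM in naive cells, 58.4 and 64.9 in Treg, 47.5 and 55.2 in TGFβ iTreg and 67.6 and 79.7 in RA+VitC iTreg. It rose by log2 0.45 in Treg (SE 0.08, edgeR adjusted p = 2.1e-06) and 0.70 in RA+VitC iTreg (SE 0.1, 1.63-fold, edgeR adjusted p = 1.5e-10), and after the input's change these were 0.37 (adjusted p = 0.18) and 0.64 (adjusted p = 0.0062). The value of 0.51 between the iTreg groups was lost without TGFβ iTreg replicate 1 (0.42) or RA+VitC iTreg replicate 2 (0.39). The region annotated as its promoter, chr14:31361545-31362029 (mm9), stood at 4.33 and 4.36 CPM in naive cells, 3.2 and 4.1 in Treg, 1.15 and 1.45 in TGFβ iTreg and 5.93 and 4.32 in RA+VitC iTreg. It was lower in TGFβ iTreg by log2 -1.71 (edgeR adjusted p = 0.015), on 2 and 3 reads.

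Pgd, 6-phosphogluconate dehydrogenase of the NADPH-making branch, stood at 49.8 and 51.8 CPM in naive cells, 34.7 and 39.1 in Treg, 44.3 and 49.4 in TGFβ iTreg and 54.7 and 46.1 in RA+VitC iTreg. It fell in Treg by 0.46 on the log2 scale (SE 0.09, edgeR adjusted p = 7.2e-06), and the value was -0.09 (adjusted p = 0.86) after the input's change. Its sums in the iTreg groups lay near the naive level (-0.11 and -0.01), yet its regions moved in both directions. One over its 3′ end, chr4:148520639-148524693 (mm9), stood at 21.3 and 23.2 CPM in naive cells and 13.3 and 13.3 in RA+VitC iTreg (log2 fold change -0.75). Another near its start, chr4:148536794-148540202, stood at 7.42 and 9.71 in naive cells and 28.8 and 19.6 in RA+VitC iTreg (log2 fold change 1.48). Taldo1, transaldolase, had a value of -0.28 in Treg that was lost without naive replicate 2 (-0.18) or Treg replicate 1 (-0.31) or 2 (-0.24). G6pdx, which opens the pathway, had no region.

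Of the 4 genes of fatty acid metabolism, the 3 that build fatty acids rose in RA+VitC iTreg against naive cells. None of the 4 was called in Treg against naive cells (median 0.17), 1 rose in TGFβ iTreg (median 0.09), 3 rose in RA+VitC iTreg (median 0.65), and 2 rose between the iTreg groups (median 0.44), with none lower in these. With library-size scaling 3 still rose in RA+VitC iTreg against naive cells (median 0.50), but only 1 between the iTreg groups (median 0.34). After the input's change 2 rose in RA+VitC iTreg against naive cells (median 0.55) and none between the iTreg groups (median 0.55). Acaca, acetyl-CoA carboxylase, the committed enzyme of fatty acid synthesis, stood at 43.4 and 41.0 CPM in naive cells, 47.5 and 48.2 in Treg, 88.6 and 89.0 in TGFβ iTreg and 82.7 and 87.8 in RA+VitC iTreg. Both iTreg groups lay apart from both sorted groups, with log2 fold changes of 1.08 (SE 0.11, 2.11-fold, edgeR adjusted p = 1.3e-15) in TGFβ iTreg and 1.02 (SE 0.09, 2.02-fold, edgeR adjusted p = 3.6e-19) in RA+VitC iTreg, and -0.06 between them (95% interval -0.27 to 0.16, adjusted p = 0.76). After the input's change these were 1.03, 1.02 and -0.01. Its most read region, in an intron at chr11:83972734-83973990 (mm9), stood at 3.21 and 2.68 CPM in naive cells, 4.43 and 4.1 in Treg, 10.9 and 14.5 in TGFβ iTreg and 7.34 and 7.78 in RA+VitC iTreg.

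Acly, ATP citrate lyase, which makes cytosolic acetyl-CoA from citrate, stood at 34.9 and 34.6 CPM in naive cells, 38.1 and 40.4 in Treg, 34.7 and 34.9 in TGFβ iTreg and 51.5 and 49.7 in RA+VitC iTreg. The 2 TGFβ iTreg libraries lay at the naive level, and RA+VitC iTreg lay above all other libraries. It rose in RA+VitC iTreg 1.46-fold over naive cells (log2 0.54, SE 0.11, edgeR adjusted p = 6.6e-06), and the log2 value was 0.70 (adjusted p = 0.011) after the input's change. Against TGFβ iTreg the log2 fold change was 0.54 (SE 0.15, edgeR adjusted p = 0.0046), 0.55 (adjusted p = 0.058) without TGFβ iTreg replicate 2 and 0.72 (adjusted p = 0.071) after the input's change. Fasn, fatty acid synthase, stood at 19.6 and 19.6 CPM in naive cells, 22.3 and 21.5 in Treg, 19.9 and 23.9 in TGFβ iTreg and 34.1 and 32.4 in RA+VitC iTreg. Both RA+VitC iTreg libraries lay above all others. It rose 1.7-fold over naive cells (log2 0.76, SE 0.13, edgeR adjusted p = 4.5e-07), and the value was 0.40 (adjusted p = 0.34) after the input's change of 0.36 (SE 0.27) was subtracted. Its rise of 0.59 over TGFβ iTreg (edgeR adjusted p = 0.014) was 0.48 without TGFβ iTreg replicate 1 (adjusted p = 0.16) and 0.55 without RA+VitC iTreg replicate 1 (adjusted p = 0.071).

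Of the 4 tested regions at the starts of these genes, 1 per gene, each passed the threshold upwards in RA+VitC iTreg against naive cells, where 21.9% of all tested regions and 12 of the 48 start regions of all 34 genes did. The Acaca one had only 6.2 reads per library on average. The Acly region annotated as promoter, chr11:100389632-100390122 (mm9), stood at 2.72 and 3.86 CPM in naive cells, 4.43 and 4.33 in Treg, 4.59 and 2.9 in TGFβ iTreg and 5.37 and 8.64 in RA+VitC iTreg, with a log2 fold change of 1.06 in RA+VitC iTreg against naive cells (edgeR adjusted p = 0.0017). The Fasn region over its 5′ UTR, first exon and intron, chr11:120681777-120684267, stood at 8.53 and 7.83 CPM in naive cells, 9.98 and 8.09 in Treg, 7.46 and 10.6 in TGFβ iTreg and 16.1 and 18.7 in RA+VitC iTreg (log2 fold change 1.09 against naive cells, edgeR adjusted p = 1.4e-07). At both starts the RA+VitC iTreg libraries were the highest of the 8. Cpt1a, which admits fatty acids to the mitochondrion for oxidation, had gene sums of 60.6 and 61.9 CPM in naive cells, 66.6 and 67.6 in Treg, 47.5 and 53.6 in TGFβ iTreg and 68.7 and 59.9 in RA+VitC iTreg. Its value of -0.40 in TGFβ iTreg against Treg was -0.33 (adjusted p = 0.10) without TGFβ iTreg replicate 1, and it was called in no other comparison.

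G6pc, glucose-6-phosphatase, which releases free glucose in liver and kidney and is not a gene of T cell glycolysis, fell the most of the set. It stood at 29.0 and 27.4 CPM in naive cells, 24.1 and 22.8 in Treg, 19.9 and 8.85 in TGFβ iTreg and 7.86 and 5.39 in RA+VitC iTreg. It fell by 2.08 on the log2 scale in RA+VitC iTreg (SE 0.2, edgeR adjusted p = 8e-18), and by 1.58 (adjusted p = 0.002) after the input's change. The 2 TGFβ iTreg libraries disagree, so the value of -1.02 against naive cells was -0.50 (adjusted p = 0.15) without TGFβ iTreg replicate 2. The value of -1.05 between the iTreg groups was -0.41 (adjusted p = 0.60) without TGFβ iTreg replicate 1 and -0.81 (adjusted p = 0.086) without RA+VitC iTreg replicate 2. Between 77.8% and 87.5% of its reads came from 1 region 4.5 kb upstream of its transcript, chr11:101220707-101224542 (mm9), which the table assigns to it as the nearest transcript.

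**Figure D5:**
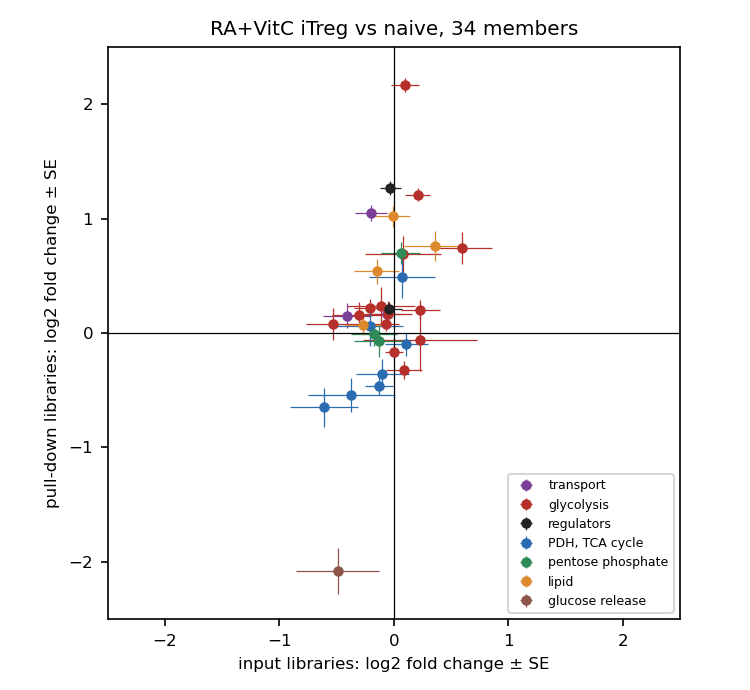
Log2 fold change of the pull-down against that of the input for the 34 genes in RA+VitC iTreg over naive cells, each with its SE. The Hk2 input lies at 0.10 beside a pull-down value of 2.17, while the inputs of Pgam1 (0.60) and Fh1 (-0.61) lie about as far from 0 as their pull-downs.

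In the inputs, none of the 34 genes was called in any of the 6 comparisons (edgeR, adjusted over 12824 genes). The number with an unadjusted p under 0.05 was 4 in Treg, 0 in TGFβ iTreg and 3 in the RA+VitC iTreg against naive cells, 0 between the iTreg groups, and 2 and 5 for TGFβ iTreg and RA+VitC iTreg against Treg. Over all genes 0, 1, 3, 0, 7 and 29 were called in the same order. Every input library was shallower than every pull-down, the TGFβ iTreg pull-downs being nearest in depth. In density per kb, 12 of the 34 genes stood above their own input in naive cells, 14 in Treg, 16 in TGFβ iTreg and 25 in the RA+VitC iTreg. Of all 14951 tested genes, 4581, 4268, 5078 and 5696 did in the same order, so the background was also highest in RA+VitC iTreg. Pull-down densities were TMM scaled and input densities were not, and the difference from the background was not tested.

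Single regions were tested as well, with adjustment over 135412 regions, of which 316 belonged to these genes. In Treg against naive cells 76 of the 316 were called (43 higher, 33 lower, 24.1%, against 23.1% of all regions), in TGFβ iTreg 64 (43 and 21, 20.3%, against 21.3%) and in RA+VitC iTreg 113 (88 and 25, 35.8%, against 37.7%). Between the iTreg groups 25 were called (21 and 4, 7.91%, against 6.55%), and against Treg 54 in TGFβ iTreg (37 and 17, 17.1%, against 15.4%) and 102 in RA+VitC iTreg (80 and 22, 32.3%, against 29.2%). These shares, taken over both directions, lie near the background and are no result about these genes. By direction, 21.9% of all regions were higher and 15.8% lower in RA+VitC iTreg against naive cells, and the difference from this was not tested. For the other comparisons, and under library-size scaling, the shares of all regions by direction are not given here. With library-size scaling, which moves the median of all regions to -0.25, -0.16 and -0.28, the higher and lower regions of RA+VitC iTreg numbered 66 and 43 against naive cells, 7 and 6 against TGFβ iTreg and 62 and 44 against Treg. Leaving out 1 library cut several counts by over 1.5 times. Treg against naive cells gave 43, 40 and 38 without naive replicate 1, naive replicate 2 and Treg replicate 2, and TGFβ iTreg against naive cells 33 and 29 without TGFβ iTreg replicate 1 and 2. RA+VitC iTreg against naive cells gave 73 without RA+VitC iTreg replicate 1. Between the iTreg groups the count was 6, 14, 12 and 16 without TGFβ iTreg replicate 1 and 2 and RA+VitC iTreg replicate 1 and 2, and between TGFβ iTreg and Treg 29 and 25 without TGFβ iTreg replicate 1 and 2.

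By place, 250 of the 391 regions (63.9%) overlapped the transcript of the gene they were assigned to, against 65.3% of all regions with a symbol, 141 lay outside it, 40 were annotated as promoter and 10 touched another gene, 4 of them at Pgam1, 3 at Fh1, 2 at Acaca and 1 at Slc16a3. A gene had 2 to 35 regions. Of the regions tested per gene, RA+VitC iTreg against naive cells gave 16 higher and 0 lower of 28 for Hif1a, 11 and 0 of 16 for Pfkp, 6 and 0 of 13 for Slc2a1 and 12 and 0 of 22 for Acaca, where 21.9% of all regions were higher and 15.8% lower. The lower side held 7 of 28 for Pfkfb3, with 1 higher, and 4 of 18 for Ogdh, with 0 higher. Other genes had called regions on both sides, with 10 higher and 1 lower for Hk2, 4 and 1 for Pdk1, 3 and 2 for Slc2a3, 2 and 1 for Pfkm, 2 and 2 for Cpt1a, 1 and 2 for Pgd and 1 and 1 for Slc16a3.

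Tpi1 and Gapdh, enzymes of the middle of glycolysis, had no region under their own names because the table assigns the regions over them to neighbours. These were looked up after values had been seen. The region over the Tpi1 transcript, chr6:124759740-124763167 (mm9), is assigned to Spsb2 and had means of 16.9 CPM in naive cells, 17.9 in Treg, 16.5 in TGFβ iTreg and 28.5 in the RA+VitC iTreg, with a log2 fold change of 0.74 in RA+VitC iTreg against naive cells (edgeR adjusted p = 4.5e-06). The region over Gapdh, chr6:125109984-125114336, is assigned to Iffo1 and had means of 26.7, 26.3, 28 and 37.6 CPM, with a log2 fold change of 0.49 (edgeR adjusted p = 0.00067). Both were highest in RA+VitC iTreg. Neither counts among the 34 genes.

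A wider list of 88 further genes of the same pathways, fixed with earlier results of these data known, had 82 tested. Of these, 19 rose and 14 fell in Treg (20.0% and 19.2% of all genes did), 23 and 17 in TGFβ iTreg (23.4% and 18.2% of all genes) and 23 and 24 in RA+VitC iTreg (29.2% and 26.6%) against naive cells, and 12 and 7 between the iTreg groups (12.4% and 10.7%). These counts lie near the background and are no result about the list. Of 27 further genes of pyruvate and the TCA cycle, 9 rose and 3 fell in Treg, 9 and 3 in TGFβ iTreg and 10 and 5 in RA+VitC iTreg against naive cells (medians 0.18, 0.22 and 0.18). The shares of all genes are those just given, and the difference from them was not tested. Among those that rose was Pcx, pyruvate carboxylase, which refills the cycle with oxaloacetate. Pcx had means of 12.3 CPM in naive cells, 16.9 in Treg, 91.0 in TGFβ iTreg and 80.2 in the RA+VitC iTreg, 7.48-fold and 6.54-fold over naive cells in the iTreg groups (log2 2.90 and 2.71, edgeR adjusted p = 2.1e-40 and 9e-44).

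Of 25 further genes of glycolysis and transport, 5 rose and 10 fell in RA+VitC iTreg against naive cells (29.2% and 26.6% of all genes did; median -0.24), while 7 rose and 6 fell in TGFβ iTreg (23.4% and 18.2% of all genes; median -0.11). Ldhb, the lactate dehydrogenase subunit that favours pyruvate formation, fell from a mean of 83.9 CPM to 47.6 in TGFβ iTreg and 37.5 in the RA+VitC iTreg (log2 -0.81 and -1.16, edgeR adjusted p = 3.8e-09 and 3.4e-20), and Pfkfb4 fell by 0.87 and 1.03. Of 23 further lipid genes, 3 rose and 6 fell in Treg against naive cells (20.0% and 19.2% of all genes did; median -0.06). In TGFβ iTreg 6 rose and 7 fell (23.4% and 18.2%; median -0.18), and in RA+VitC iTreg 8 and 7 (29.2% and 26.6%; median 0.16). Between the iTreg groups 7 rose and none fell (30.4% higher, against 12.4% of all genes), and the difference was not tested. There Srebf2, a master regulator of sterol synthesis, rose from a mean of 267 to 411 CPM (log2 0.62, SE 0.07, edgeR adjusted p = 6.8e-14). Acadl, which oxidises long-chain fatty acids, rose from 109 to 166 (log2 0.60, edgeR adjusted p = 5.6e-08). The 7 further pentose phosphate genes gave at most 1 higher and 2 lower in any comparison.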

How the data were processed

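5hmC was mapped by CMS-IP in 4 groups of mouse CD4 T cells, 2 replicates each, with a pull-down and an input library per replicate (16 libraries). The authors deposited 1 raw count per region and library (mm9). Per the file headers, regions are merged broad peaks (q 0.01). The submitters' processing notes name MACS2 2.1.0.20151222, SAMtools 1.7, Trim Galore 0.4.2 and bcl2fastq 2.20.0.442. The aligner is not given in the sources used here.

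Counts were summed per symbol over all regions assigned to it. Genes and regions of the 8 pull-downs were fitted with edgeR 4.0.16 (R 4.3.3), with TMM scaling, filterByExpr at a minimum count of 10, 1 group term and the quasi-likelihood test with Benjamini-Hochberg adjustment at 0.05. The inputs were fitted with the same test, but scaled by library size without TMM. For the pull-down change minus the input change all 16 libraries were in 1 fit. It used TMM factors for the pull-downs alone. The main gene fit was tried on simulated counts for RA+VitC iTreg against naive cells, with far fewer genes changed than were called in the data. The fits of regions, of inputs and of the pull-down change minus the input change were not simulated. DESeq2 1.42.0 was an alternative. Replicate numbers were not used to pair the samples in the main fit. Within each role, up to 4 called genes with at least 20 reads were named with all libraries, ordered by largest change, with their most read and most changed regions, and of the wider list the 2 highest and 2 lowest genes per comparison; 1 gene that this rule names is not reported here. Further genes were named after their values were seen. The members and lists were chosen with earlier results of these data known. Figures were drawn with matplotlib 3.10.9.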

Additional observations from a re-analysis of the deposited data

How the results depend on the processing

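Of the 34 genes, the number called moved from 18 to 9 (DESeq2) and 7 (reads thinned to equal depth) in Treg against naive cells. Thinning gave 9, 12, 5 and 9 in TGFβ iTreg against naive cells, RA+VitC iTreg against naive cells, RA+VitC iTreg against TGFβ iTreg and TGFβ iTreg against Treg, where a replicate block gave 10 in the last. The pull-down change minus the input change, added after the data were seen, gave 4, 11, 9, 3, 10 and 9 (Treg, TGFβ iTreg and RA+VitC iTreg against naive cells, the iTreg groups, then TGFβ iTreg and RA+VitC iTreg against Treg). Leaving out 1 library gave 13 to 19, 12 to 18, 17 to 22, 5 to 10, 11 to 17 and 16 to 18 in that order. Of the 316 regions, DESeq2 called 16, 31, 60, 6, 24 and 57, a minimum mean of 50 reads 37, 29, 44, 11, 27 and 44 of the 70 left, and thinning 7, 26, 44, 5, 30 and 42 of the 132 left, each in that order. Between the iTreg groups library-size scaling called 13 regions and a fit of those groups alone 16, and the replicate block 33 between TGFβ iTreg and Treg. Without 1 library the regions were 38 to 78, 29 to 66, 73 to 116, 6 to 23, 25 to 51 and 71 to 103. Thinning and the read minimum leave fewer reads or regions; for the others the cause was not tested.

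The replicate numbers were not shown to pair samples (correlation of deviations 0.012 for naive cells and Treg, 0.024 for the iTreg groups, over 11017 genes). Replicates differed little beyond counting error, so a low correlation cannot exclude pairing. The iTreg groups share the replicate labels 3-20 and 3-5. Of the single-gene values of the 34 genes in 6 comparisons, calls were lost for 26 with DESeq2, 49 thinned, 15 with library size, 13 with the block, 9 over transcript regions alone and 56 after the input's change, where Pkm in RA+VitC iTreg against naive cells turned from 0.20 to -0.03. The TGFβ iTreg pull-downs hold the fewest reads. A difference not called there may be absent, small or missed at this depth, and which of these holds was not tested.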
